A study of Homo sapiens with 3 samples.

Results

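Cancer-testis antigen genes are germline genes whose transcripts are largely confined to the testis in healthy adults and reappear in tumours. Most of the families lie on the X chromosome in blocks of near-identical copies, and DNA methylation of their promoters is the best-known means of keeping them silent in somatic cells. The families measured here were MAGEA, MAGEB and MAGEC (MAGE-domain proteins that bind RING ubiquitin ligases), SPANX (sperm proteins of the nuclear envelope region), GAGE, PAGE and XAGE (related small, disordered proteins), SSX (transcriptional repressors, known from the fusion genes of synovial sarcoma), CTAG (the NY-ESO-1 group), BAGE, PRAME (a repressor of retinoic acid receptor signalling) and CTCFL (also called BORIS, the testis paralogue of the insulator protein CTCF, described as an activator of cancer-testis genes). Members were all probe sets whose platform gene symbol begins with one of the family names or equals CTCFL or PRAME, which gave 68 of the 21357 symbols listed for the array, read by 71 of its 54675 probe sets. Of these probe sets, 25 carry several symbols that all belong to 1 family. A further 3 that also list a symbol without a family name were left out. The prefixes also take in SSX2IP, a centrosomal protein that binds SSX proteins, and the CTAGE genes, which are no kin of CTAG. These 10 probe sets are given separately. The other 61 probe sets are called the cancer-testis families here, and they carry 61 symbols, some of them shared.

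The study profiled a colorectal cancer cell line with 1 Affymetrix array for each of 3 groups. The control array holds cells infected with an empty-vector virus, the LATS2 array cells infected with a virus for full-length LATS2, a kinase of the Hippo pathway, and the LATS2N array cells infected with a virus for residues 1 to 625 of LATS2, which end before the kinase domain. The sample labels name the line as SW620 and the series text names SW480, and each construct is described as stably expressed. All 3 groups carry a virus, so no uninfected cells were compared. With 1 array per group there is no spread between replicates, no test and no p-value for any difference, and the number of arrays limits the precision.

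Signals are MAS5 intensities on a linear scale, without detection calls. The floor below which a signal was not used is 50.5, the median over all probe sets of the 3 arrays, and the share of probe sets above it was 50.2% for control, 49.6% for LATS2 and 50.2% for LATS2N. Signals under the floor were set to it, and a probe set was called higher or lower on 1 array than on another where the resulting ratio was 2-fold or more, and a ratio with 1 array at the floor is written "at least". Where 3 signals stand together without labels they are those of control, LATS2 and LATS2N, in that order, and where 2 ratios do, those of LATS2 and LATS2N to control. Of 9 colon epithelial markers on a fixed list, 8 were above the floor in control, 9 in LATS2 and 8 in LATS2N. Their levels differed widely. The keratin gene KRT18 read 43054, 47247 and 45854 in that order, and EPCAM, KRT8 and VIL1 were also bright. CDH17 read 438.3, 448.6 and 393.1, and CDX2 176.6, 194.2 and 141.4. Nearer the floor, KRT20 read 108.5, 112.3 and 126.8, GPA33 78.4, 80.9 and 78.0, and LGALS4 27.7, 55.9 and 39.7. LATS2 itself read 205.7, 219.2 and 219.1 on 1 probe set and 385.2, 377.1 and 409.2 on another, with 2 more below the floor. Their position relative to the cloned sequence is unknown, so they do not check the constructs.

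Upstream sequences are shown first for CTCFL, SPANXB1, SPANXA1, MAGEA12 and MAGEC2, which had called probe sets, and for MAGEA3 and MAGEA6, which had none. They show how alike the SPANX copies and the MAGEA copies are and how the windows differ in CG content. Each is the 250 bases before the most upstream RefSeq transcript start on GRCh38.p14, with CG dinucleotides, the sites that DNA methylation uses, in capitals. CTCFL lies at chr20:57525653-57525902 (minus strand), SPANXB1 at chrX:141002344-141002593 (plus strand), SPANXA1 at chrX:141584739-141584988 (minus strand), MAGEA12 at chrX:152733507-152733756 (plus strand), MAGEA3 at chrX:152698544-152698793 (plus strand), MAGEA6 at chrX:152769690-152769939 (minus strand) and MAGEC2 at chrX:142205291-142205540 (minus strand).
CTCFL: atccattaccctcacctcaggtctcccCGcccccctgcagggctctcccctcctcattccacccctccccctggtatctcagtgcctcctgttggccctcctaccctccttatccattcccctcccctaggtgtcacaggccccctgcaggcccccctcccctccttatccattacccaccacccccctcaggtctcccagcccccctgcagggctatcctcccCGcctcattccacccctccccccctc
SPANXB1: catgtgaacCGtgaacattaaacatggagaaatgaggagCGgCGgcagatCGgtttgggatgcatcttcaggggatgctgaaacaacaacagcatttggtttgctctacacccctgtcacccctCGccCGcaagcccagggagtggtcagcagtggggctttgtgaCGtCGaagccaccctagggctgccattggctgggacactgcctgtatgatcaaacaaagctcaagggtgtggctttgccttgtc
SPANXA1: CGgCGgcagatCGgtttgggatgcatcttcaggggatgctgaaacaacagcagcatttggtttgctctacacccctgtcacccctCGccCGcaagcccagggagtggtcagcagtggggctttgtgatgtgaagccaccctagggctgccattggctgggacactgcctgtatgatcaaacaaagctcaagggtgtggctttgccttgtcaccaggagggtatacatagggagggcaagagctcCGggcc
MAGEA12: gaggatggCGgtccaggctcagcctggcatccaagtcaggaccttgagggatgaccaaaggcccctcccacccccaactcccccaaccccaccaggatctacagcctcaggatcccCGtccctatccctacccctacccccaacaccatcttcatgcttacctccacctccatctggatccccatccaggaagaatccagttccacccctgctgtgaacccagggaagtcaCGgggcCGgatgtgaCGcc
MAGEA3 and MAGEA6: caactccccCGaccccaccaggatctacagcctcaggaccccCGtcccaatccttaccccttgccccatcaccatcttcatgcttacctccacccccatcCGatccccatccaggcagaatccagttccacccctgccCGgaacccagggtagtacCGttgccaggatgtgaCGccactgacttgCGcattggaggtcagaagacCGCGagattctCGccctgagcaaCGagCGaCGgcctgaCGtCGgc
MAGEC2: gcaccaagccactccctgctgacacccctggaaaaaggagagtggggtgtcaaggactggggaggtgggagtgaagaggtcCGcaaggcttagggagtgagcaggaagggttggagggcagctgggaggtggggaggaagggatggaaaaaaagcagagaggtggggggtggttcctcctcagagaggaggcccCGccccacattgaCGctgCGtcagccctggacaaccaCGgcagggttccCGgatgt

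The windows of MAGEA3 and MAGEA6 were identical, although the genes lie on opposite strands, and so were those of SPANXA1 and SPANXA2. SPANXC matched SPANXA1 at 247 of 250 positions (98.8%). The SPANXB1 window begins at another offset, and where it overlaps that of SPANXA1 it matched at 208 of 211 positions (98.6%). Over the overlap of the best pair of annotated starts, MAGEA12 matched MAGEA2 at 228 of 245 positions (93.1%) and MAGEA3 at 189 of 220 (85.9%). CG dinucleotides numbered 2 in the CTCFL window, 8 in SPANXB1, 6 in SPANXA1, 5 in MAGEA12, 15 in MAGEA3 and 6 in MAGEC2. A window was found for 50 of the 61 symbols of the cancer-testis families, 48 of them on the X chromosome, and their median was 8 CG dinucleotides (range 1 to 18), against a median of 10 over 27305 genes (quartiles 3 and 23). CCGGAA, the core letters of an ETS factor motif, searched on both strands, occurred in 4 of the 50 windows (8.0%) against 14.8% of all genes, MAGEA3 and MAGEA6 among them. GGAATG, the core letters of the TEAD motif through which the Hippo pathway acts, occurred in 7 of the 50 (14%) against 12.0% of all genes. It was found in no MAGEA or SPANX window and 3 times in that of CTCFL. These matches are descriptions of letters and not sites of binding.

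Most of the cancer-testis probe sets were dim in these cells. Of the 61, 42 lay below the floor on all 3 arrays, 19 were above it on at least 1 array and 14 on all 3. The share above the floor was 24.6% for control, 27.9% for LATS2 and 26.2% for LATS2N, which is below the share of all probe sets on each. The probe sets above the floor belonged to CTCFL (1 of 1), SPANX (4 of 5), GAGE (4 of 5), MAGEA (4 of 11), XAGE (2 of 4), SSX (2 of 14), PAGE (1 of 3) and MAGEC (1 of 4). All 7 MAGEB, 5 CTAG and the only BAGE and PRAME probe sets stayed below the floor. The signals of the 19 are drawn by array in the plot of member signals.

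**Figure D1:**
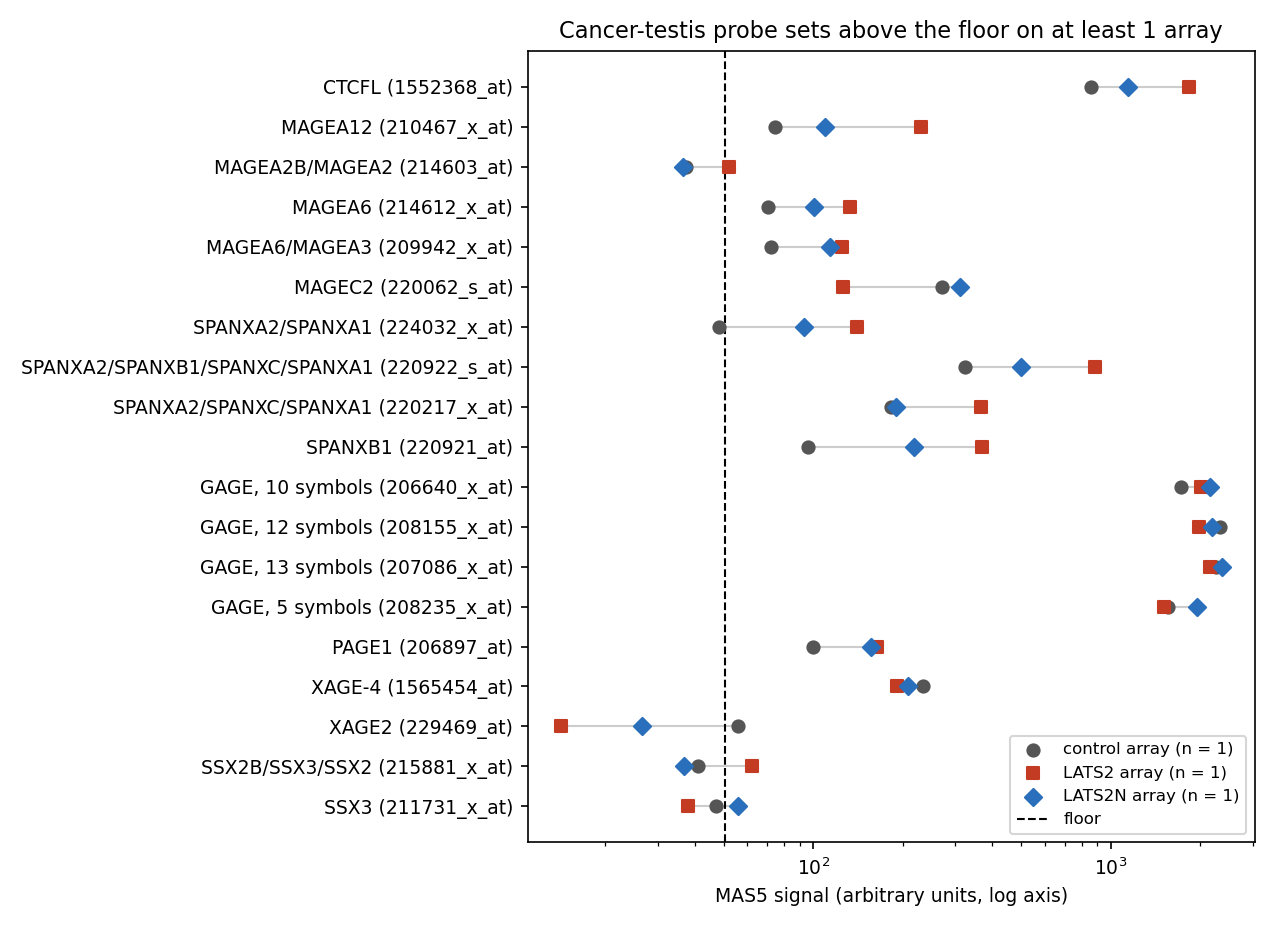
MAS5 signals (log axis) of the 19 cancer-testis probe sets above the floor on at least 1 array, with 1 point per array and the floor of 50.5 as a dashed line. CTCFL and the 4 SPANX probe sets read highest on the LATS2 array, the 4 GAGE probe sets lie close together on the 3 arrays, and MAGEC2 reads lowest on the LATS2 array.

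Relative to control, the LATS2 array read at least 2-fold higher for CTCFL, MAGEA12 and 3 SPANX probe sets, and at least 2-fold lower for MAGEC2. Over all 71 members, 26 reached the floor on the LATS2 or the control array, of which 5 (19.2%) were called higher and 1 lower. Without SSX2IP and CTAGE it was 5 of 18 (27.8%) higher and the same 1 lower. Over all 29466 probe sets that reached the floor, 1.11% were called higher and 1.15% lower. The 3 called SPANX probe sets read close copies, so the 5 higher calls are not 5 independent measurements. Among these 5, the probe sets of CTCFL and SPANXB1 are the 2 whose names do not mark them as able to read several transcripts. MAGEA12, the other 2 SPANX probe sets and the lower call, MAGEC2, are so marked. The median log2 ratio of the 18 was 0.51, with 12 above 0 and 6 below, against a median of 0.01 over all probe sets that reached the floor, where 51.4% were above 0. The median over all 26 was 0.01, with SSX2IP and CTAGE lying mostly below control. At a 1.5-fold limit 9 of 26 were higher and 2 lower (background 6.37% and 6.19%), the added ones being MAGEA6, MAGEA3 with MAGEA6, PAGE1 and SPANXA1 with SPANXA2 and SPANXC on the high side and 1 SSX2IP probe set on the low side. At 3-fold only SPANXB1 and MAGEA12 were higher and none was lower (background 0.095% and 0.115%).

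**Figure D2:**
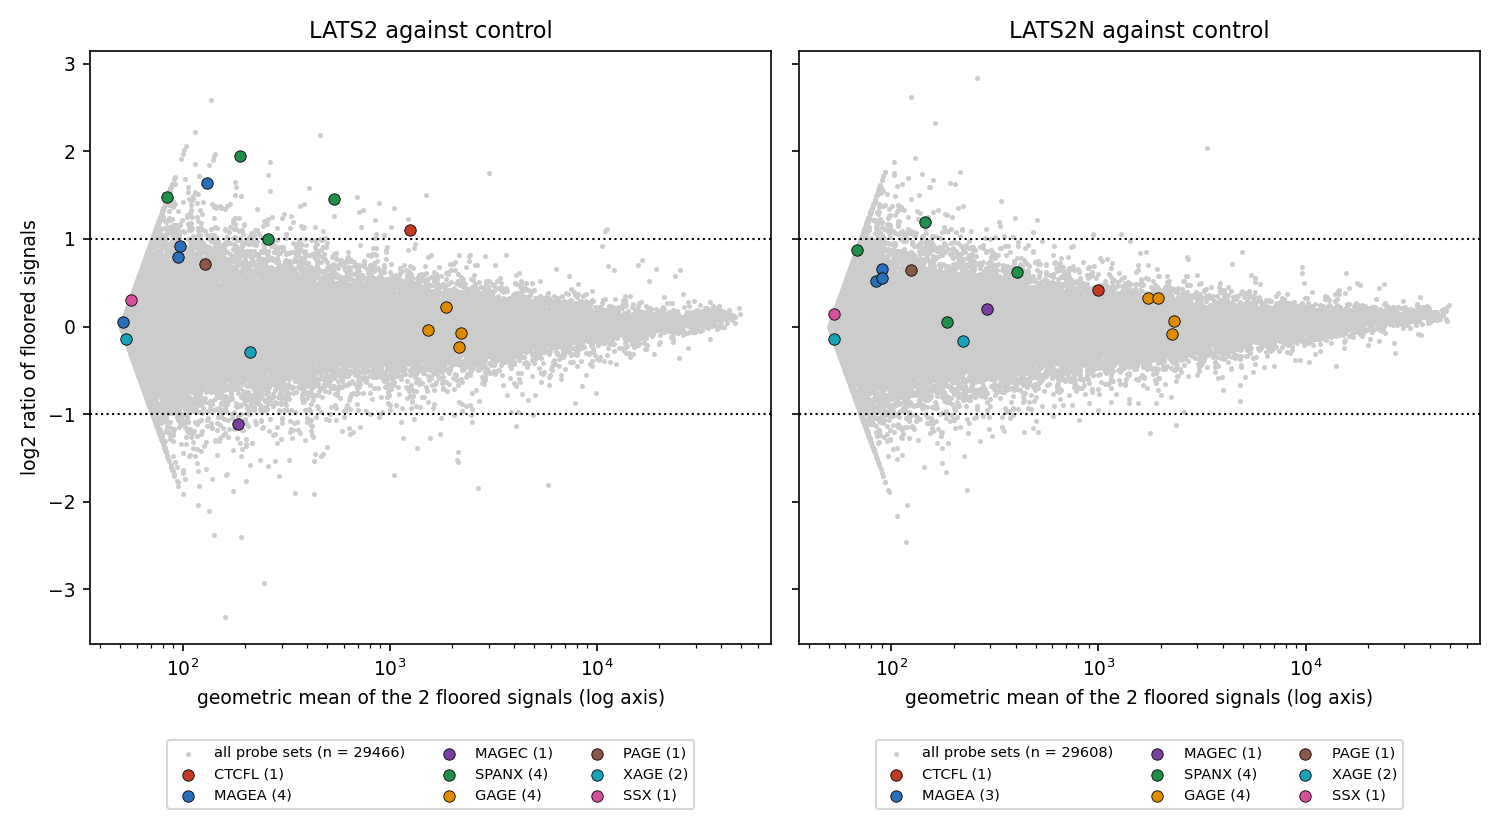
Log2 ratios of floored signals against the geometric mean of the 2 signals (log axis) for LATS2 against control (left) and LATS2N against control (right), with all probe sets that reached the floor in grey, cancer-testis probe sets coloured by family and dotted lines at 2-fold. CTCFL, at a log2 ratio of 1.10, lies at the sparse upper edge of the grey cloud on the left, and the GAGE points lie within the cloud on both sides.

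CTCFL was called at a signal well above the floor. Its only probe set read 857.7 (control), 1837 (LATS2) and 1144 (LATS2N). The LATS2 array was therefore the highest and the control the lowest, with LATS2N between them. The ratio to control was 2.14-fold for LATS2 and 1.33-fold for LATS2N, and LATS2 was 1.61-fold above LATS2N. Among 6804 probe sets with a mean signal from 500 to 2000, 15 (0.22%) were called higher on the LATS2 array, CTCFL included. Between probe sets of 1 gene, the log2 ratios had a robust SD of 0.18 for dimmer signals of 500 to 2000. That SD covers probe noise only, not differences between cultures, so it is no yardstick for the 1.10 of CTCFL. On these whole-culture arrays, more cells with a transcript and more transcript per cell cannot be told apart.

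The genes beside CTCFL on chromosome 20 were measured as well. RBM38, an RNA-binding protein, had a log2 ratio of -0.31 for LATS2 against control, and RAE1, a mRNA export factor, -0.02. SPO11, PCK1 and ZBP1 were below the floor on all 3 arrays. PMEPA1, a target of TGF-beta, had a log2 ratio of 0.42 for LATS2 and 0.62 for LATS2N. None of these 6 neighbours was called in any of the 3 comparisons. CTCF, the ubiquitous paralogue of CTCFL, read 2095 (control), 2203 (LATS2) and 1795 (LATS2N), with log2 ratios to control of 0.07 and -0.22.

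SPANX was the family with the most calls. SPANXB1, read by a probe set of its own, gave 95.7 (control), 370.2 (LATS2) and 218.7 (LATS2N), which is 3.87-fold and 2.29-fold above control. The probe set shared by SPANXA1, SPANXA2, SPANXB1 and SPANXC read 324.2, 888.4 and 499.4, which is 2.74-fold and 1.54-fold. In both, the LATS2 array was the highest and the control the lowest. That probe set is among the same 15 of 6804 as CTCFL, but its mean signal of 523.9 passed 500 only through the LATS2 array. In the range below, with a mean signal from 200 to 500, 0.799% were called higher on the LATS2 array. All 4 SPANX probe sets above the floor kept the order control, LATS2N, LATS2 from low to high.

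The probe set for SPANXA1 and SPANXA2 read 48.3 (control, below the floor), 140.3 (LATS2) and 92.8 (LATS2N), or at least 2.78-fold and at least 1.84-fold above control. The probe set for SPANXA1, SPANXA2 and SPANXC read 183.0, 365.8 and 190.1. Its LATS2 ratio, a log2 value of 0.999, fell just short of the 2-fold call, and LATS2N was nearly level with control at 0.05. The fifth SPANX probe set reads SPANXA2-OT1, a transcript that overlaps SPANXA2, and stayed below the floor at 2.8, 15.9 and 4.4. Since SPANXA1, SPANXA2 and SPANXC are close copies, their separate levels are uncertain. The measured genes nearest SPANXB1 on the X chromosome that are no members (LINC00632, LOC101928833, SOX3, LDOC1, LOC645188 and SLITRK4) were below the floor on all 3 arrays.

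In the MAGEA family, MAGEA12 was called higher and the MAGEA3 and MAGEA6 probe sets fell short of the call. MAGEA12 read 74.1 (control), 230.5 (LATS2) and 109.2 (LATS2N), or 3.11-fold and 1.47-fold above control. MAGEA6, whose product is known with that of MAGEA3 to bind the ubiquitin ligase TRIM28, read 70.4, 133.3 and 101.0, or 1.90-fold and 1.44-fold. The probe set shared by MAGEA3 and MAGEA6 read 72.1, 124.7 and 113.9, or 1.73-fold and 1.58-fold. All 3 probe sets were lowest on the control and highest on the LATS2 array, and all lay near the floor, where noise was greater. Between probe sets of 1 gene, the robust SD of the log2 ratio of LATS2 to control was 0.44 where the dimmer signal lay from 50 to 100. Of all probe sets with a mean signal from 100 to 200, the range that holds MAGEA12 and SPANXB1, 2.3% were called higher, and of those from 50 to 100, which holds the SPANXA1 and SPANXA2 probe set, 2.91%.

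The fourth MAGEA probe set above the floor, for MAGEA2 and MAGEA2B, read 37.3, 52.3 and 36.5 and so crossed the floor on the LATS2 array only. The 7 others, for MAGEA1, MAGEA2 with MAGEA2B (a second probe set), MAGEA4, MAGEA8, MAGEA9 with MAGEA9B, MAGEA10 and MAGEA11, were below it throughout. MAGEA1 read 2.5, 40.4 and 26.5, and such values give no ratio. Of the 6 measured genes nearest MAGEA12 on the X chromosome that are no members, none was called: CETN2 had log2 ratios of 0.24 and 0.24 for LATS2 and LATS2N against control, NSDHL -0.18 and -0.24, ZNF185 -0.18 and 0.57, and FATE1, itself a cancer-testis gene, -0.22 and -0.23. GABRQ and GABRA3, on the same side of MAGEA12 as FATE1, were below the floor on all 3 arrays.

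MAGEC2, which encodes a partner of TRIM28 and is also called CT10, went the other way. It read 271.2 (control), 125.6 (LATS2) and 311.0 (LATS2N). The LATS2 array stood alone at the low end, 2.16-fold below control and 2.48-fold below LATS2N, while LATS2N was 1.15-fold above control. A second MAGEC2 probe set read 3.7, 1.9 and 3.8, below the floor, so the call rests on 1 probe set. Of all probe sets with a mean signal from 200 to 500, 1.17% were called lower on the LATS2 array. MAGEC1 read 10.8, 42.7 and 23.6 and MAGEC3 read 21.0, 3.2 and 20.5, all below the floor. SPANXA1, SPANXA2 and SPANXC, whose probe sets were higher on the LATS2 array, lie on the same stretch of the X chromosome as MAGEC2. Of the 6 measured genes nearest MAGEC2 that are no members, 5 were below the floor on all 3 arrays, the exception being UBE2NL, with log2 ratios of -0.03 and 0.48 for LATS2 and LATS2N.

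The GAGE genes gave bright signals that differed little. The probe set listing 12 GAGE symbols read 2337 (control), 1981 (LATS2) and 2198 (LATS2N). The set listing 13 read 2264, 2155 and 2360, the set listing 10 read 1723, 2017 and 2164, and the set listing 5 read 1557, 1514 and 1951. Their log2 ratios to control ran from -0.24 to 0.23 for LATS2 and from -0.09 to 0.33 for LATS2N, with no call. The 4 sets did not order the arrays alike for LATS2 and control, while all 4 read lower on LATS2 than on LATS2N, by log2 ratios from -0.37 to -0.10. These probe sets read the same block of copies and are not separate measurements of different genes. The only probe set for GAGE1 alone stayed below the floor at 6.4, 12.8 and 1.0.

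PAGE1, a relative of GAGE, read 100.1 (control), 164.2 (LATS2) and 156.0 (LATS2N), or 1.64-fold and 1.56-fold above control. Both construct arrays were thus at a like level above control, short of the call. PAGE4 and PAGE5 were below the floor. XAGE-4 read 234.7, 191.6 and 208.6, with log2 ratios of -0.29 and -0.17. XAGE2 read 55.8 (control), 14.2 (LATS2) and 26.6 (LATS2N), at least 1.11-fold lower with either construct, with both construct arrays below the floor. XAGE3 and the probe set for XAGE1A and XAGE1B stayed below it.

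The SSX genes proper were at or below the floor. Of their 14 probe sets, that for SSX2, SSX2B and SSX3 read 41.0, 62.2 and 36.9 and 1 SSX3 probe set read 47.1, 38.0 and 55.9, so each crossed the floor on 1 array. SSX1, SSX2 alone with SSX2B, SSX4 with SSX4B, and the set for SSX3, SSX5 and SSX7 stayed below it. PRAME read 34.2 (control), 31.6 (LATS2) and 49.6 (LATS2N), under the floor on all 3, so no ratio was taken. CTAG1A, CTAG1B and CTAG2 reached at most 37.9, the MAGEB genes (MAGEB1, MAGEB2, MAGEB3, MAGEB4, MAGEB6 and MAGEB18) at most 32.6, and BAGE2, a pseudogene, 37.2.

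Of the prefix matches given separately, SSX2IP was above the floor with all 6 of its probe sets. All 6 read lower on the LATS2 than on the control array, with log2 ratios from -0.70 to -0.04 and a median of -0.45. The probe set with the largest difference read 1398 (control), 863.2 (LATS2) and 1263 (LATS2N). For LATS2N the 6 ratios ran from -0.37 to 0.04. None was called. The 2 bright CTAGE probe sets, which list CTAGE4, CTAGE8 and CTAGE9 (and CTAGE15 in 1 of them), read 861.6, 811.6 and 665.0, and 996.6, 1089 and 862.5. CTAGE1 and CTAGE11P were below the floor.

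LATS2N was compared with the same control array, so the comparisons are not independent of each other. SPANXB1 was the only member called, 2.29-fold higher, which is 1 of 25 members that reached the floor (4.0%) or 1 of 17 (5.88%) without SSX2IP and CTAGE, and none was called lower. The background was 0.932% higher and 0.834% lower of 29608 probe sets. The median log2 ratio of the 17 was 0.33, with 14 above 0, against 0.01 and 50.8% above 0 over all probe sets. At 1.5-fold 5 were higher and 0 lower (background 5.17% and 4.87%), namely 3 SPANX probe sets, MAGEA3 with MAGEA6, and PAGE1. At 3-fold none was called either way (background 0.0844% and 0.0439%). CTCFL, MAGEA12, MAGEA6 and PAGE1 were each above control by less than 2-fold, with log2 ratios of 0.42, 0.56, 0.52 and 0.64.

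**Figure D3:**
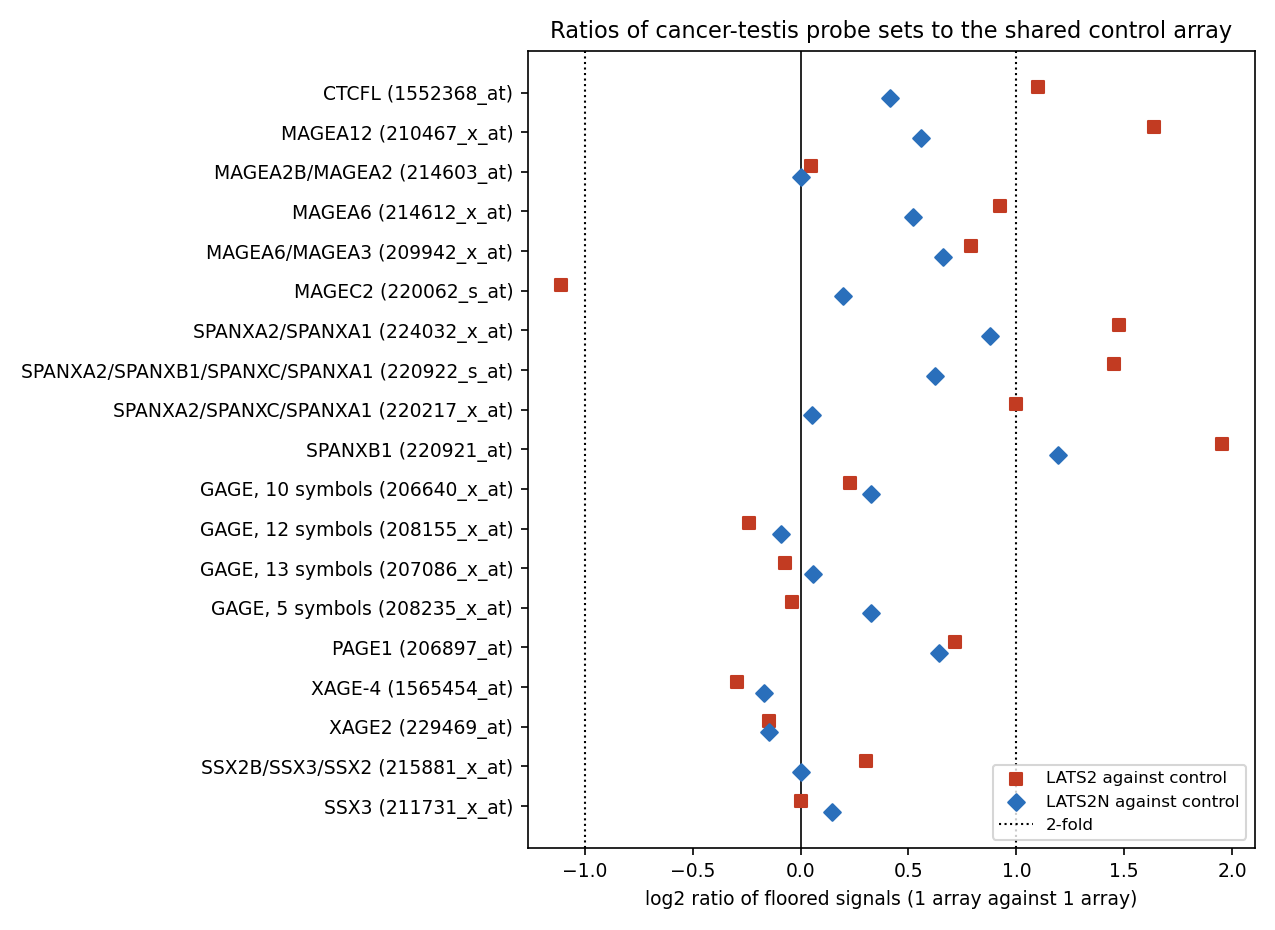
Log2 ratios of floored signals of the 19 cancer-testis probe sets for LATS2 (squares) and LATS2N (diamonds) against the same control array, with dotted lines at 2-fold. SPANXB1 lies past 2-fold for both constructs (1.95 and 1.19), CTCFL and MAGEA12 only for LATS2, and MAGEC2 lies below control for LATS2 (-1.11) and above it for LATS2N (0.20).

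Setting LATS2 directly against LATS2N leaves the control array out. MAGEA12 was 2.11-fold higher with LATS2 and MAGEC2 2.48-fold lower. These were 1 each of 26 members, or of 18 without SSX2IP and CTAGE (5.56%), against 0.849% higher and 1.1% lower of 29337 probe sets. The median of the 18 was 0.10, with 11 above 0 and 7 below. The 4 SPANX log2 ratios ran from 0.60 to 0.94 and that of CTCFL was 0.68, all short of 2-fold. At 1.5-fold 6 were higher, namely CTCFL, MAGEA12 and the 4 SPANX probe sets, and only MAGEC2 was lower (background 5.38% and 5.65%). At 3-fold none was called (background 0.0614% and 0.0954%). PAGE1 was almost level between the constructs at 0.07. Among the 19 probe sets above the floor on at least 1 array, 9 followed the order control, LATS2N, LATS2 from low to high, against 19.2% of all 30758 probe sets above the floor on at least 1 array. That order held in 4 of 4 SPANX and 3 of 4 MAGEA probe sets. The SPANX probe sets read close copies, and MAGEA6 is also listed on the MAGEA3 probe set. The 9 are therefore not 9 independent measurements.

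Cancer-testis genes outside these families were taken from a list of 30, of which 23 could be read from a probe set of their own and 7 reached the floor. None was called for LATS2 against control, with a median log2 ratio of 0.10 and 4 of 7 above 0. ACTL8, an actin-like testis protein, read 1838 (control), 2666 (LATS2) and 1523 (LATS2N). CABYR, a calcium-binding protein of the sperm tail, read 223.6, 330.5 and 194.1. TEX15, needed for meiosis, read 709.8, 538.0 and 552.6, and the zinc finger gene ZNF165 read 442.9, 377.0 and 373.7. On the LATS2N array TSSK6, a testis kinase, was called at least 2.94-fold higher (148.7, with control below the floor at 48.0). It was the only call of the list against control, 1 of 7 genes that reached the floor (background 0.932%), and the median there was -0.23. TSSK6 was also called 2.63-fold lower for LATS2 against LATS2N. It was read from the brightest of 3 probe sets, whose name marks it as able to read several transcripts.

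The type II MAGE genes, which are expressed in many somatic tissues and are no cancer-testis genes, differed little. Of 9 measured, 4 reached the floor and all 4 were slightly above control on both arrays, with medians of 0.13 for LATS2 and 0.20 for LATS2N and no call. MAGED1, a neurotrophin receptor partner, read 981.5, 1041 and 1105, and MAGED2 read 786.1, 989.4 and 1067. MAGEF1 had log2 ratios of 0.17 and 0.22, and NSMCE3, a subunit of the SMC5/6 complex, 0.07 and 0.08.

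Factors of DNA methylation and chromatin silencing, a list that also holds the demethylating enzymes TET1, TET2 and TET3, were all above the floor and none was called. Over 18 measured genes the median log2 ratio was 0.05 for LATS2, with 11 above 0, and -0.08 for LATS2N, with 5 above 0. The histone deacetylase gene HDAC1 had log2 ratios of 0.14 and 0.12, and HDAC2 -0.05 and 0.00. The corepressor TRIM28 had log2 ratios of 0.01 and -0.15, and UHRF1, which recruits DNMT1 to replicating DNA, 0.16 and -0.04. DNMT1 and DNMT3B were chosen after their values were seen. DNMT1, the maintenance methyltransferase, read 6075, 6059 and 5509. DNMT3B, a de novo methyltransferase, read 410.4, 713.5 and 525.7, the highest LATS2 log2 ratio of the list at 0.80. TET1, TET2 and TET3 had LATS2 log2 ratios of -0.08, 0.19 and -0.11. RNA levels give no measure of methylation at the members' promoters.

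Retinoic acid targets, which PRAME represses, had 6 of 6 genes above the floor on at least 1 array and no call in either comparison with control. Their median log2 ratio was 0.29 for LATS2, over 5 genes with 3 above 0, and 0.45 for LATS2N, over 6 genes with 4 above 0. CRABP2, a retinoic acid carrier, read 2341, 1780 and 1953. RARB, a retinoic acid receptor, read 354.1, 253.3 and 497.4, below control for LATS2 and above it for LATS2N. DHRS3, a retinal reductase, had log2 ratios of 0.29 and 0.93, and STRA6, a retinol transporter, 0.36 and -0.21. CYP26B1, which degrades retinoic acid, read 65.3, 124.1 and 99.9, near the floor, with the highest LATS2 log2 ratio of the list at 0.93. CYP26A1, a related enzyme, was above the floor on the LATS2N array only, at 67.0.

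**Figure D4:**
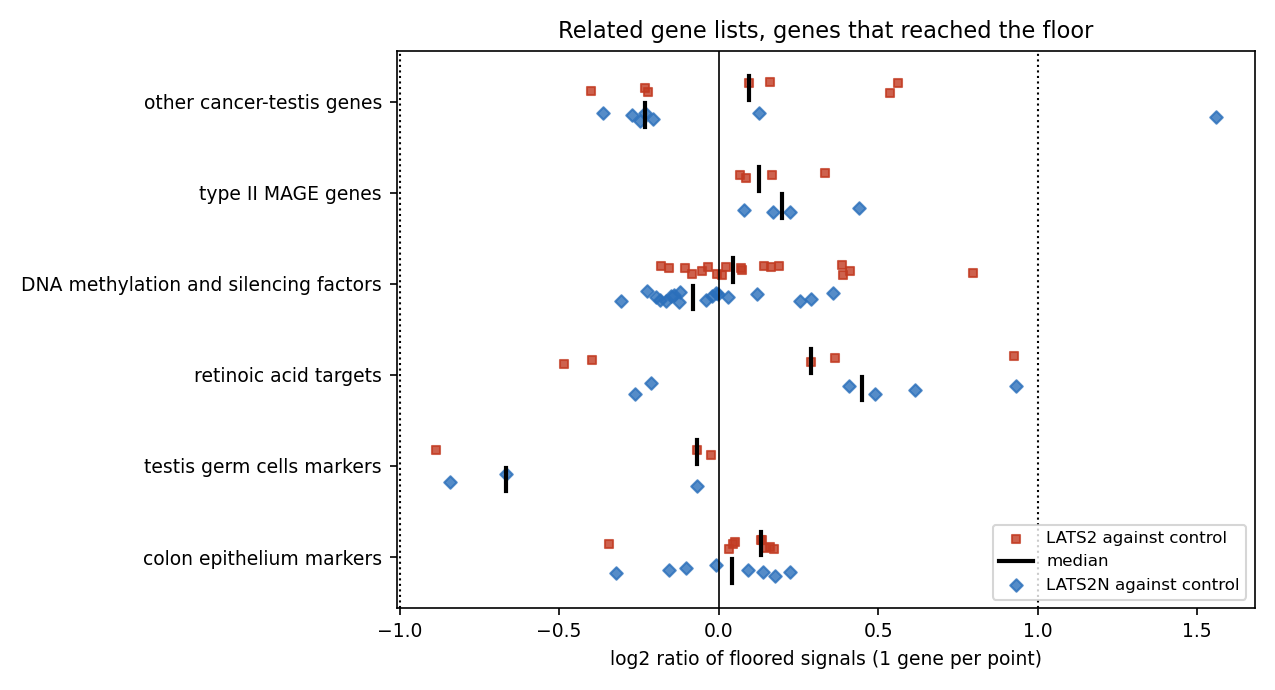
Log2 ratios of floored signals, with 1 point per gene that reached the floor, for LATS2 (squares) and LATS2N (diamonds) against control in 6 fixed lists, with black bars at the medians and dotted lines at 2-fold. The only point past 2-fold is TSSK6 for LATS2N among the other cancer-testis genes, and the silencing factors centre on 0.05 and -0.08.

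Testis germ cell markers were dim and not higher with the constructs. Of 10, 3 were above the floor on at least 1 array, and the summed signal of all 10, values below the floor included, was 401.8 (control), 235.3 (LATS2) and 246.2 (LATS2N). The defining germ cell genes DDX4 and DAZL, and the protamine genes PRM1 and PRM2, were below the floor on all 3 arrays. PIWIL1 read 95.4, 93.8 and 53.2, and ACRV1 97.5, 52.7 and 61.5. No fibroblast marker (5 measured) and no leukocyte marker (4 measured) was called, with summed signals over each list of 1916, 2514 and 2342 and of 154.0, 183.6 and 186.2. Among the fibroblast markers COL1A1 read 325.3, 596.5 and 606.8 and LUM 1519, 1884 and 1635, while COL1A2 and COL3A1 were below the floor throughout. The part of any such cells in the results was not tested. The remaining genes of the X chromosome were compared in the same way. Over 394 genes that reached the floor the median log2 ratio of LATS2 to control was 0.05, with 6 called higher (1.52%) and none lower, and over 397 genes for LATS2N it was 0.05, with 2 higher and 2 lower.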

How the data were processed

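Total RNA of 3 cell groups was measured on 1 array each. The deposited values are linear intensities, 1 per probe set, which the authors computed with MAS5 per the submitters' processing notes, with version and settings not given in the sources used here. Each array's trimmed mean (2% of values dropped at either end) was 500.1, so the arrays share a scaling target and were used as deposited. The 62 manufacturer's controls were left out, which leaves 54613 probe sets. Gene symbols came from the platform table (41091 probe sets with 1 symbol, 1801 with several, 11721 not listed). Of 68 member symbols, 66 matched RefSeq (GRCh38.p14) by gene identifier. Signals below the floor of 50.5 were set to it before log2 ratios were taken in Python 3.11.15 with pandas 2.3.3, and probe sets below it on both arrays compared gave no ratio. The robust SD between probe sets of 1 gene covers probe noise only, not differences between cultures. For related lists, each gene was read from its probe set with 1 symbol and the highest mean log2 signal. Every member is named. Of the related lists, the plan was to name genes called against control and up to 4 bright genes. Further genes of the silencing, retinoic acid and marker lists are named beyond that plan. Members and lists were chosen with earlier results of these data known. The calling step was run on copies of the control array with known shifts, placed only on signals well above the floor. That run checks the calculation, not calls near the floor or differences between cultures. Promoter windows were aligned with Biopython 1.88, with unpaired ends not counted. Alternatives changed the floor, scaling, call size and probe sets counted.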

Additional observations from a re-analysis of the deposited data

How the results depend on the processing

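No paired analysis was possible because each group holds 1 array, so no array could be left out either. Quantile normalisation and median centring moved no median by more than the robust SD between probe sets of 1 gene, and no count by more than 1.5-fold. Median centring raised the higher calls for LATS2 against control from 5 to 6. No called ratio changed sign under any of these alternatives. CTCFL and the probe set for SPANXA1, SPANXA2, SPANXB1 and SPANXC kept their 2-fold call for LATS2 against control under all 5 floor and scaling alternatives (log2 1.09 to 1.15, and 1.30 or more). The other called ratios were lost at the 75th percentile floor of 360.0, where nearly all of these signals lie below the floor, and held under the other 4. The dim members limit the precision: with a floor at the 25th percentile (14.5), members above it numbered 40 (control), 43 (LATS2) and 42 (LATS2N), and at the 75th percentile 11 on each. At the 25th percentile 7 of 47 were called higher and 4 lower for LATS2 against control. For LATS2N 2 of 46 were higher and 4 lower, and for LATS2 against LATS2N 2 of 49 were higher and 2 lower. At the 75th percentile 2 of 14 were called higher and 0 lower for LATS2. For LATS2N 0 of 12 were higher, and for LATS2 against LATS2N 0 of 13 were higher and 0 lower. With no floor, 16 of 71 were higher and 10 lower for LATS2. For LATS2N 10 were higher and 8 lower, and for LATS2 against LATS2N 11 and 12. The shares over all probe sets at these other floors were not computed, so these counts cannot be set against a background. At 1.5-fold, 9 were higher and 2 lower for LATS2, 5 higher for LATS2N and 6 higher for LATS2 against LATS2N. At 3-fold, 2 were higher and 0 lower for LATS2, 0 higher for LATS2N, and 0 higher and 0 lower for LATS2 against LATS2N. Without probe sets whose names end in _s_at or _x_at, which may read several transcripts, 2 were higher and 0 lower for LATS2, 0 higher and 0 lower for LATS2 against LATS2N, the median log2 ratios were 0.38 for LATS2 and 0.42 for LATS2N, and 5, 5 and 4 members were above the floor on the control, LATS2 and LATS2N arrays. Without probe sets with several symbols, 3 were higher for LATS2, the lower call of MAGEC2 stayed, and 14, 13 and 14 were above the floor. Without SSX2IP and CTAGE the LATS2 median was 0.51 and 15 were above the floor on the control array. Fewer probe sets were counted in these last settings by construction. For the settings without _s_at and _x_at names or without several symbols, no share over all probe sets was computed. Those counts cannot be set against a background.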
